A study of Mus musculus with 9 samples.

Results

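The genes flanking Ednrb on mouse chromosome 14 were followed in hindgut RNA from 9 Affymetrix MOE430 version 2 arrays. The members are 8 genes, Bora, Dis3, Slain1 and Mycbp2 on one side of Ednrb and Pou4f1, Slitrk1, Tgds and Gpr180 on the other, out of 18193 genes that the arrays name. They are read by 18 probe sets, each naming a single gene, out of 45037 probe sets that are not array controls. The 8 genes were picked by their place near Ednrb, with their differences between the genotypes in these arrays already known. The differences of the members are therefore given as a description, with no test of their own. Their calls come from the fit over all probe sets. A call kept in other settings refits the same values and is no added support.

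Ednrb encodes endothelin receptor B, which neural crest cells need to reach the distal gut. There were 3 arrays in each of 3 groups, all from terminal colon of mouse embryos at embryonic day 14 by the sample labels and 14.5 by the series text. Wild type carries no mutant allele by its label. Ednrb null, labelled Ednrb -/-, carries lacZ on both copies of the gene. Ednrb NCC null is labelled Ednrb-FLEX(NCC-/-) and described as mutant for Ednrb in NCC cells, with neither the abbreviations nor a Cre driver spelled out. The labels name no strain, source of the targeted cells or litter for any group, and do not say whether an array is a single embryo or a pool. The p-values thus speak to how far these particular samples vary, and that variation may be technical.

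Genes that lie close to an altered locus are inherited together with it, because recombination rarely separates near neighbours. A mutant stock can thus differ from its controls both in the altered gene and in the stretch of chromosome around it, including in sequence variants that change how well a short array probe binds. An altered locus can also act on the transcription of nearby genes. Each gene here is read by one or more probe sets, and a probe set samples only a short part of a transcript.

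The members have unrelated jobs. Bora is a cofactor of the mitotic kinases Aurora A and Plk1, and Dis3 is a ribonuclease of the RNA exosome. Slain1 binds the growing ends of microtubules, and Mycbp2 is a large ubiquitin ligase known from axon growth. Pou4f1 is a transcription factor of sensory neurons, and Slitrk1 is a membrane protein of neurons that promotes neurite and synapse formation. Tgds is named as a sugar-nucleotide dehydratase, and Gpr180 is an orphan membrane protein. In the order of measured genes along the chromosome, Slain1 and Pou4f1 were each the second gene from Ednrb, on opposite sides, and Mycbp2 the fourth. Slitrk1 was 9 genes away, Dis3 and Bora 14 and 15, and Tgds and Gpr180 17 and 18.

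RefSeq promoter windows of GRCm38.p6, from 250 bases before to 50 after the gene start, matched 6 of the 8 members (Dis3, Slain1, Pou4f1, Slitrk1, Tgds and Gpr180) and Ednrb. Tgds and Gpr180 are shown because they are neighbours that were both lower in Ednrb null, Slitrk1 because it had the largest difference of the members in Ednrb null, and Ednrb because it is the altered gene. Capitals mark matches on either strand to 4 motifs, the TATA box TATAAA, the CCAAT box CCAAT, the GC box GGGCGG and the E-box CACGTG, none of which overlaps a different motif here, though a pair of GC boxes in Gpr180 share a base. The windows are chr14:118132716-118133015 on the minus strand for Tgds, chr14:118136877-118137176 on the plus strand for Gpr180, chr14:108914190-108914489 on the minus strand for Slitrk1 and chr14:103843652-103843951 on the minus strand for Ednrb.
Tgds: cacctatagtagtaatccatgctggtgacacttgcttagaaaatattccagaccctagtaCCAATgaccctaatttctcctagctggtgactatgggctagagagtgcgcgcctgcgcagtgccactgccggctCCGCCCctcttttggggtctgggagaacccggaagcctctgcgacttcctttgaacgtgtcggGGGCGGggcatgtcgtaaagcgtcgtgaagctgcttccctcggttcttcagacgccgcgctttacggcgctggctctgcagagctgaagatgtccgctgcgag
Gpr180: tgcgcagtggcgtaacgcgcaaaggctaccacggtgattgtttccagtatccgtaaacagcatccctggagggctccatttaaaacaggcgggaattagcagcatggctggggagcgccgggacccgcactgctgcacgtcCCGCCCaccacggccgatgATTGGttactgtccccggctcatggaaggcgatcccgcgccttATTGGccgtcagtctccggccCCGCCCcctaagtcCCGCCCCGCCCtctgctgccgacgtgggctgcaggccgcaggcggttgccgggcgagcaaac
Slitrk1: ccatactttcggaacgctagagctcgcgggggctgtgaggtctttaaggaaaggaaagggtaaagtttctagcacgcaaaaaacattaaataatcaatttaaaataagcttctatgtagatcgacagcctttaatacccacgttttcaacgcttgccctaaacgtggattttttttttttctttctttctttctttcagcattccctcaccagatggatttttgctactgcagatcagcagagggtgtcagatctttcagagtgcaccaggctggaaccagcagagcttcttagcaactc
Ednrb: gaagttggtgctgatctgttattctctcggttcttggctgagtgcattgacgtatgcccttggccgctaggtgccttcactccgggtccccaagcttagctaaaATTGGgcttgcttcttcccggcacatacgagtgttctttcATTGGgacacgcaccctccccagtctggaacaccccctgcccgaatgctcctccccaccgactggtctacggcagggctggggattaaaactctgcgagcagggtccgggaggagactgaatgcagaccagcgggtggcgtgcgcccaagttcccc

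Tgds and Gpr180 are transcribed away from each other, with 3861 bases between their windows. Both held GC boxes, 2 in Tgds and 4 in Gpr180, and CCAAT boxes, 1 in Tgds and 2 in Gpr180. The Ednrb window held 2 CCAAT boxes and no GC box, and none of the 4 motifs was in the Slitrk1 window. Over all 32851 promoter windows of the table, 35.7% held a GC box, 37.4% a CCAAT box, 13.6% a TATA box and 7.15% an E-box. CpG pairs numbered 29 in Gpr180, 21 in Tgds, 15 in Ednrb and 9 in Slitrk1, with a median of 7 over the table. These matches describe letters only.

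The median intensity was 112 to 116 on every array. Pairs of arrays correlated over probe sets, which are no independent replicates, at r = 0.9932 to 0.9967 within a group and 0.9881 to 0.9928 between groups. The log2 ratio of the 3' to the 5' Actb control, a measure of RNA integrity, was 1.18 ± 0.13 for wild type, 0.87 ± 0.06 for Ednrb null and 1.21 ± 0.18 for Ednrb NCC null (SD, n = 3). All 8 smooth muscle and all 10 gut epithelial markers lay above the dimmest 40% of probe sets. Only 2 of 7 melanocyte markers did.

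Ednrb itself had a log2 intensity of 11.08, 10.95 and 11.05 in wild type, 9.23, 9.40 and 8.77 in Ednrb null, and 11.15, 11.32 and 11.04 in Ednrb NCC null by its brightest probe set. The Ednrb null arrays lay below all others, while the NCC null and wild type ranges overlapped. Ednrb fell by 1.89 in Ednrb null against wild type (SE 0.15, limma adjusted p = 2.88e-05). The difference of Ednrb NCC null from wild type was 0.15 (adjusted p = 0.696). All 3 Ednrb probe sets were lower in Ednrb null, and the part of the gene each one reads was not checked.

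Of the 18 member probe sets, 4 were called in Ednrb null against wild type at an adjusted p under 0.05, against 5.03% of all probe sets. The call higher was Bora, against 2.51% of all probe sets called higher. The calls lower were Slitrk1, Tgds and Gpr180, against 2.52% called lower. In Ednrb NCC null against wild type 2 of the 18 were called, Bora higher and Tgds lower, against 3.58% of all probe sets, 2.06% higher and 1.51% lower. Between Ednrb null and Ednrb NCC null 1 was called, a probe set of Mycbp2, against 4.41%. Because the genes were chosen with these contrasts known, nothing is read from the counts. The median log2 difference of the 18 was -0.05 for Ednrb null and -0.16 for Ednrb NCC null, and over all probe sets it was 0.034 and 0.008. The range ran from -1.04 to 0.97 in Ednrb null and from -0.62 to 0.78 in Ednrb NCC null.

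**Figure D1:**
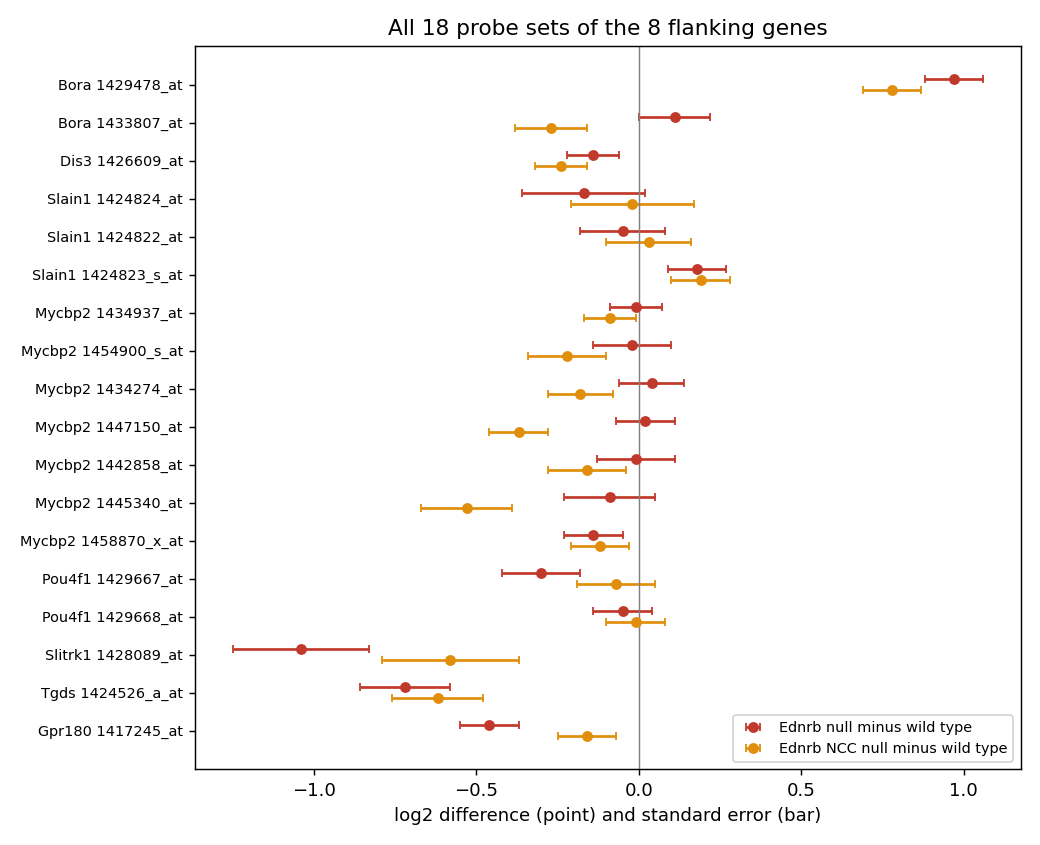
Log2 difference from wild type (x axis) of each of the 18 probe sets of the 8 genes (y axis), as points with the standard error of the fit as bars, for Ednrb null and Ednrb NCC null. A probe set of Bora stands at 0.97 and 0.78 and its other one at 0.11 and -0.27, while Slitrk1, Tgds and Gpr180 lie below 0 in both mutants and the Slain1 and Pou4f1 probe sets stay between -0.30 and 0.19.

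Bora, read by 1429478_at, had a log2 intensity of 8.94, 9.04 and 9.01 in wild type, 10.04, 10.01 and 9.84 in Ednrb null and 9.73, 9.89 and 9.70 in Ednrb NCC null. Every mutant array lay above every wild type array, and the mutant groups overlapped. The difference from wild type was 0.97 (SE 0.09), or 1.95-fold, in Ednrb null and 0.78 (SE 0.09), or 1.71-fold, in Ednrb NCC null. Both mutants were compared with the same 3 wild type arrays. The other Bora probe set, 1433807_at, did not show this. It read 9.14, 9.40 and 9.12 in wild type, 9.52, 9.33 and 9.15 in Ednrb null and 8.92, 9.05 and 8.87 in Ednrb NCC null. Its differences were 0.11 and -0.27 (SE 0.11), so in Ednrb NCC null the probe sets of this gene had opposite signs. The call of 1429478_at was kept in both mutants under all 16 other settings tried, with differences of 0.83 to 1.03 in Ednrb null and 0.72 to 0.82 in Ednrb NCC null.

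Dis3, the gene after Bora in chromosome order, was read by a single probe set and was not called in any comparison. Its log2 intensity was 10.46, 10.62 and 10.65 in wild type, 10.50, 10.40 and 10.43 in Ednrb null and 10.37, 10.27 and 10.38 in Ednrb NCC null. The Ednrb null arrays overlapped wild type, and the Ednrb NCC null arrays lay just below it. The differences were -0.14 and -0.24 (SE 0.08), and neither was called.

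Slitrk1, the neuronal membrane protein, had the largest difference of the 8 genes in Ednrb null. With the Actb ratio fitted, Tgds and Bora exceeded it. Its log2 intensity was 9.09, 8.18 and 9.03 in wild type, 7.87, 7.64 and 7.68 in Ednrb null and 8.28, 8.33 and 7.97 in Ednrb NCC null. Ednrb null lay below both other groups, and Ednrb NCC null overlapped wild type through the single low array wild type 1C. The difference from wild type was -1.04 (SE 0.21) in Ednrb null, which is 2.06-fold lower, and -0.58 (SE 0.21) in Ednrb NCC null, which was not called. Without wild type 1C the differences were -1.33 and -0.87, and both were called. Without any 1 of Ednrb null 37, Ednrb null 41, wild type 1B and wild type 1D the call in Ednrb null was lost, at -1.0, -1.01, -0.88 and -0.91.

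Some markers of neurons and of enteric neural crest fell in the same arrays. Of 10 neuronal markers, all of them measured, 1 was called lower in Ednrb null, Elavl4, an RNA-binding protein of neurons, at -1.52. In Ednrb NCC null 2 were called lower, Elavl4 at -1.56 and the growth cone gene Gap43 at -1.09. Of all genes read by their brightest probe set, 4.79% and 3.9% were called in either direction. Tubb3 had larger differences, -1.74 and -1.83, but was not called (limma adjusted p = 0.0711 and 0.0674). The median difference of the 10 markers was -0.53 and -0.33. Their summed intensity was 1154 to 1579 in Ednrb null, 1087 to 1221 in Ednrb NCC null and 1421 to 2463 in wild type. Of 10 markers of enteric neural crest 8 were measured, of which 5 fell in Ednrb null, while 3 fell in Ednrb NCC null, and their sum was 3893 to 4346 in Ednrb null, 4555 to 5739 in Ednrb NCC null and 5716 to 7552 in wild type. Ret and Sox10, which define that population, fell by 3.23 and 1.99 in Ednrb null and by 3.31 and 1.6 in Ednrb NCC null. Intensities have no true 0, so no marker can be said to be absent. Over wild type 1B, 1C and 1D the neuronal sum was 1421, 1896 and 2463, and the enteric neural crest sum 5716, 7225 and 7552. Slitrk1 read 9.09, 8.18 and 9.03 on the same arrays, and no relation is read from 3 arrays. Some markers of other cell types moved too. The summed intensity of mesothelial markers was 583.2 in wild type 1B and 1932 to 3668 on the other arrays. Leaving out wild type 1B ended the Slitrk1 and Gpr180 calls, but so did leaving out some other single arrays. The embryonic globin gene Hbb-bh1 rose by 2.15 in Ednrb null (limma adjusted p = 1.2e-05), and Cdx1, a transcription factor of gut epithelium, fell by 1.21 (adjusted p = 0.0065). These are single genes of their lists. Of 6 red blood cell markers measured, 2 were called higher in Ednrb null, with a median difference of 0.19 over the list. Of 10 gut epithelial markers, 2 were called lower in Ednrb null, with a median of -0.2. In Ednrb NCC null 3 of the 10 were called higher, with a median of 0.48, and 2 of 7 macrophage markers, with a median of 0.34. Smooth muscle markers summed to 47480 to 54670 there and 39850 to 45500 in wild type, with 0 of 8 called. Between the mutants 6 of the 10 epithelial markers were called lower in Ednrb null. The part of any of these cells in the members' differences was not tested. In whole tissue, fewer cells of a type and less RNA per cell cannot be told apart.

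The genes whose pattern over the 9 arrays was most like that of Slitrk1 were Enc1, Ptprz1, Numbl, Plscr4 and Ccl11, at Pearson r of 0.970, 0.968, 0.952, 0.947 and 0.947. They are the highest of 13080 genes outside the dimmest 40% and are given as a description. All of them lie on other chromosomes (13, 6, 7, 9 and 11), as most genes do, since 640 of 18032 placed genes lie on chromosome 14. Enc1 read 11.1, 10.77 and 11.16 in wild type, 10.56, 10.5 and 10.45 in Ednrb null and 10.8, 10.64 and 10.6 in Ednrb NCC null. Ptprz1 read 7.0, 6.29 and 7.31 in wild type, 5.78, 5.77 and 5.80 in Ednrb null and 6.26, 6.36 and 6.23 in Ednrb NCC null. Like Slitrk1, all of these genes were lower in wild type 1C than in the other wild type arrays, which follows in part from their choice by this pattern.

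Tgds was lower in both mutants. Its log2 intensity was 9.26, 9.44 and 9.82 in wild type, 8.83, 8.85 and 8.67 in Ednrb null and 8.69, 8.98 and 8.98 in Ednrb NCC null. Every mutant array lay below every wild type array, and the mutants overlapped each other. The difference from wild type was -0.72 (SE 0.14), 1.65-fold lower, in Ednrb null and -0.62 (SE 0.14), 1.54-fold lower, in Ednrb NCC null. In Ednrb null the call was lost without Ednrb null 41 (-0.67). Without that array 1 of the 18 member probe sets was called in Ednrb null, Bora, and without wild type 1B 2 were called. The Tgds call in Ednrb NCC null was lost without any 1 of 7 arrays, all but Ednrb null 41 and wild type 1B, with differences over the 9 arrays left out in turn of -0.75 to -0.46.

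Gpr180, next to Tgds in gene order, was lower in Ednrb null. Its log2 intensity was 10.18, 10.02 and 10.19 in wild type, 9.66, 9.79 and 9.58 in Ednrb null and 9.90, 9.97 and 10.03 in Ednrb NCC null. Ednrb null lay below both other groups, and Ednrb NCC null just overlapped wild type. The difference from wild type was -0.46 (SE 0.09), 1.37-fold lower, for Ednrb null and -0.16 (SE 0.09) for Ednrb NCC null. Leaving out Ednrb null 29, Ednrb null 41 or wild type 1B ended the call in Ednrb null, at -0.45, -0.41 and -0.43. Every Ednrb null array had a lower Actb ratio (0.8 to 0.9) than every other array (1.03 to 1.4). The ratio thus cannot be told apart from that genotype, and a lost call does not show an effect of RNA integrity. With that ratio as a covariate Bora and Tgds kept their calls in Ednrb null, at 0.83 and -1.02, while Slitrk1 (-0.75) and Gpr180 (-0.48) lost theirs.

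**Figure D2:**
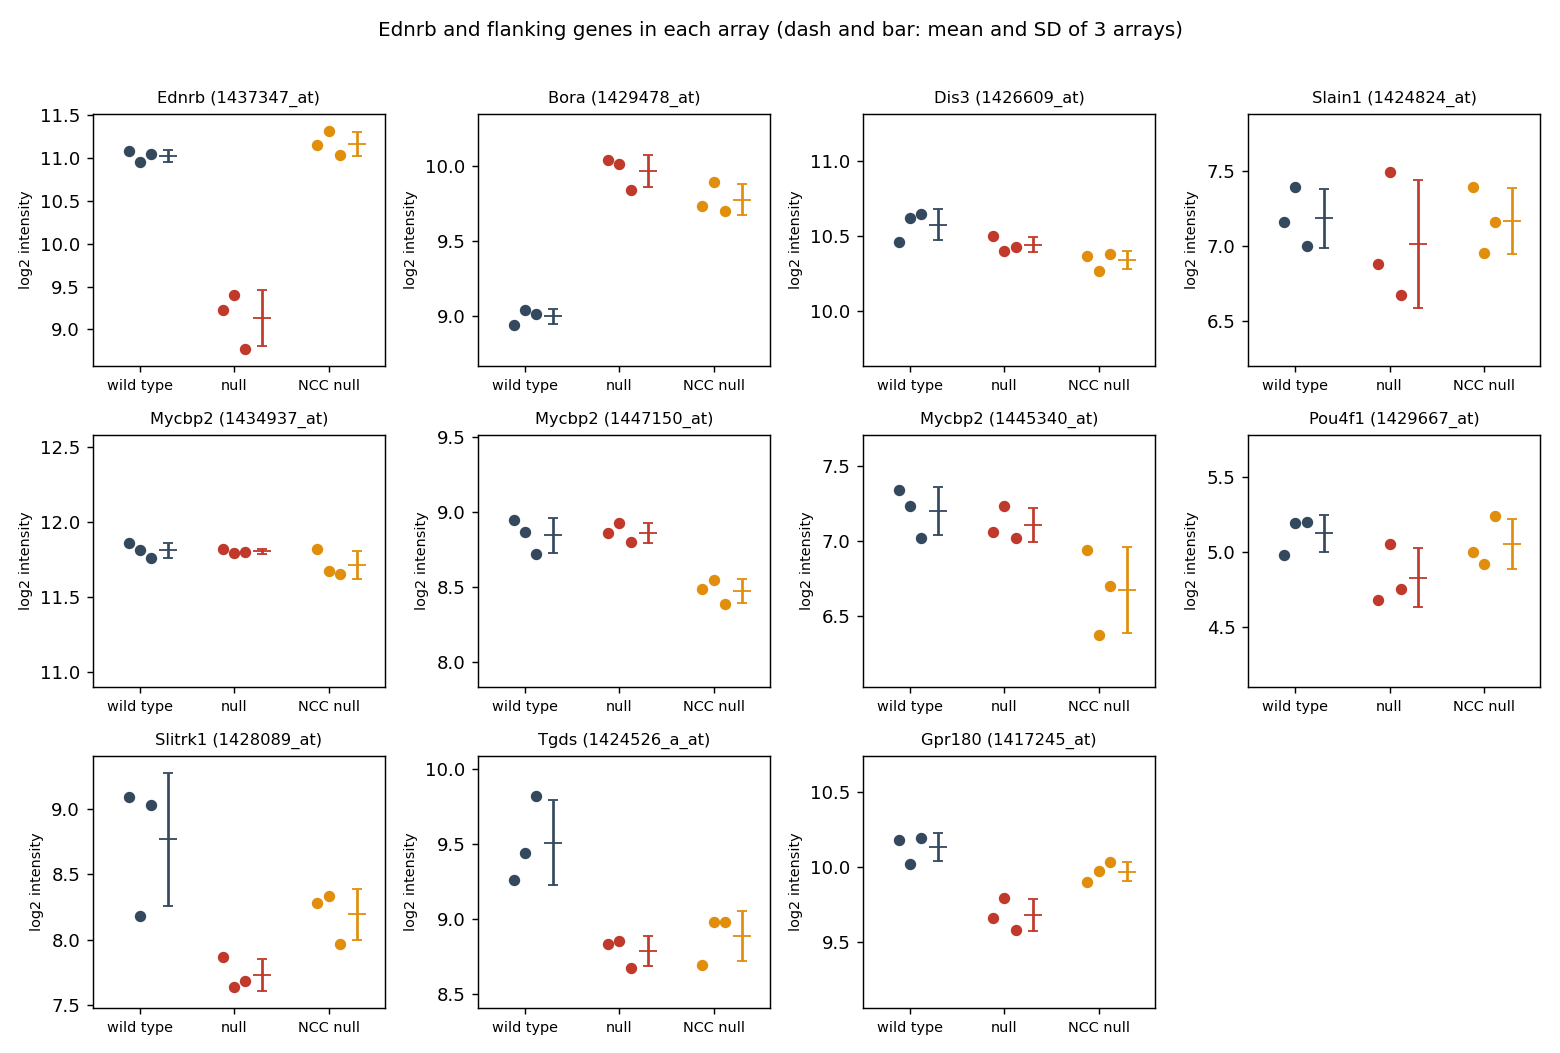
Log2 intensity (y axis) of Ednrb and of the member probe sets described for every array, with 3 points per genotype (x axis: wild type, Ednrb null, Ednrb NCC null) and their mean and SD beside them. Panels have their own range on the y axis. Bora lies near 9 in wild type and at 9.70 to 10.04 in the mutants, Tgds lies at 9.26 or more in wild type and at 8.98 or less in the mutants, and Slitrk1 in wild type 1C (8.18) falls among the Ednrb NCC null arrays.

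None of the members closest to Ednrb was called against wild type. Slain1, read by 3 probe sets, was at 7.16, 7.39 and 7.0 in wild type, 6.88, 7.49 and 6.67 in Ednrb null and 7.39, 6.95 and 7.16 in Ednrb NCC null by the brightest. The 3 groups overlapped, with differences of -0.17 and -0.02 (SE 0.19). The other Slain1 probe sets gave -0.05 and 0.18 in Ednrb null and 0.03 and 0.19 in Ednrb NCC null, and the last of them, 1424823_s_at, is among the dimmest 40%.

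Mycbp2 was read by 7 probe sets, and none was called against wild type. The brightest read 11.86, 11.81 and 11.76 in wild type, 11.82, 11.79 and 11.80 in Ednrb null and 11.82, 11.67 and 11.65 in Ednrb NCC null. The 3 groups overlapped, with differences of -0.01 and -0.09 (SE 0.08). Over the 7 probe sets the difference ran from -0.14 to 0.04 in Ednrb null and from -0.53 to -0.09 in Ednrb NCC null, so all 7 lay below 0 in Ednrb NCC null.

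The fourth brightest Mycbp2 probe set, 1447150_at, read 8.95, 8.87 and 8.72 in wild type, 8.86, 8.93 and 8.80 in Ednrb null and 8.49, 8.55 and 8.39 in Ednrb NCC null. Ednrb NCC null lay below both other groups, which overlapped. It was 0.39 (SE 0.09) higher in Ednrb null than in Ednrb NCC null, the call between the mutants counted above, and 0.37 lower in Ednrb NCC null than in wild type (difference -0.37), which was not called but was so in 4 of 15 other settings. Leaving out any 1 of 7 arrays, all but wild type 1B and wild type 1D, ended the call between the mutants, and so did fitting the Actb ratio, while the difference stayed at 0.34 to 0.42. Another probe set, 1445340_at, read 7.34, 7.23 and 7.02 in wild type, 7.06, 7.23 and 7.02 in Ednrb null and 6.94, 6.37 and 6.70 in Ednrb NCC null, with a difference of -0.53 (SE 0.14) in the latter that was called in 2 of 15 other settings.

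Pou4f1 was dim, with both probe sets among the dimmest 40%, where small differences say little. The brighter read 4.98, 5.19 and 5.20 in wild type, 4.68, 5.05 and 4.75 in Ednrb null and 5.0, 4.92 and 5.24 in Ednrb NCC null. The groups overlapped, with differences of -0.30 and -0.07 (SE 0.12), and the other probe set gave -0.05 and -0.01. Of 11 markers of sensory and spinal neurons, cells in which Pou4f1 is known, 8 were measured. Their summed intensity was 3854 to 4490 in Ednrb null, 2823 to 3813 in Ednrb NCC null and 3568 to 4944 in wild type, and none of the 8 was called against wild type.

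The next question was whether the stretch of chromosome around Ednrb held more differences than the rest of the genome. Neighbours were taken from gene order alone, as the 25 measured genes on each side of Ednrb, with each gene read by its brightest probe set. These 50 genes contain the 8 members. Of the 46 protein-coding genes in the stretch they span, Ednrb included, 6 were not measured. In Ednrb null 4 of the 50 were called (8%), all of them members (Bora, Slitrk1, Tgds and Gpr180), against 4.79% of all 18193 genes. In Ednrb NCC null 2 of the 50 were called (4%), Bora and Tgds, against 3.9%. Of the 42 neighbours that are not members, 0 were called by limma in either comparison, and 4 and 5 had an unadjusted p under 0.05. The members were taken out with their differences known, so these low counts follow in part from that choice and are not set against the genome. Between the mutants 1 of the 42 was called, the transporter gene Abcc4, 0.75 higher in Ednrb null than in Ednrb NCC null (SE 0.15, adjusted p = 0.0207), against 5.29% of all genes.

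None of the 8 nearest measured genes on either side of Ednrb was called in any of the 3 comparisons by its brightest probe set, Ednrb itself aside. Over all genes 4.79%, 3.9% and 5.29% were called, so a lack of calls among 16 genes says little. The closest on one side were Slain1os, Slain1 and Scel. Slain1os, a transcript antisense to Slain1, had a difference of 0.07 in Ednrb null (95% interval -0.18 to 0.32) and 0.05 in Ednrb NCC null (-0.20 to 0.30). Scel, a protein of cornified epithelium, had -0.26 (-0.56 to 0.03) and 0.01 (-0.29 to 0.31). On the other side, before and after Pou4f1, the unnamed transcript 4930432J09Rik had 0.12 (-0.14 to 0.39) and 0.15 (-0.11 to 0.41). Obi1, a ubiquitin ligase of replication origins, had -0.01 (-0.21 to 0.19) and -0.07 (-0.27 to 0.13). Of the 16 genes within 8 of Ednrb, 7 were among the dimmest 40%, Slain1os, 4930432J09Rik and Pou4f1 among them, and there a lack of calls says little.

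Reading all probe sets changed that picture. The 50 genes have 103 probe sets that name 1 gene, 85 of them outside the members. Of these 85, 8 were called for Ednrb null (9.41%) and 11 in Ednrb NCC null (12.9%), against 4.83% and 3.61% of all 34945 probe sets that name 1 gene. Between the mutants 3 of the 85 were called (3.53%), against 4.49%, 2 of Gpc6 and 1 of Abcc4. In Ednrb null the 8 were 4 higher and 4 lower, and in Ednrb NCC null the 11 were 3 higher and 8 lower. Both counts rest on the same wild type arrays. Without wild type 1B they were 5 and 7, and without Ednrb null 29 Ednrb null had 5. Fitting the Actb ratio gave 2 and 12. With that covariate the calls over all probe sets in Ednrb null fell as well, as given at the end. They also changed when an array was left out, so these lower counts are not set against the genome. This reading was added after the values were seen, and so were the genes it names.

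Of the 14 probe sets outside the members that were called in at least 1 comparison, 13 were not the brightest of their gene. Over the genome, 872 of 1689 calls in Ednrb null and 710 of 1260 in Ednrb NCC null were of the brightest. The members called against wild type were all called by their brightest probe set, so the 13 follows in part from leaving them out. Ndfip2, an adaptor of Nedd4-type ubiquitin ligases 5 genes from Ednrb, is an example. Its probe set 1433205_at read 8.73, 8.53 and 8.70 in wild type, 7.04, 7.35 and 6.52 in Ednrb null and 7.24, 7.35 and 7.42 in Ednrb NCC null. Both mutants lay below wild type and overlapped each other. The differences were -1.69 (limma adjusted p = 0.000177) and -1.32 (adjusted p = 0.002), and they were called in all 15 other settings tried for it. The brightest Ndfip2 probe set gave 0.18 and 0.36, of the opposite sign and not called.

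Dzip1, a ciliary protein 24 genes from Ednrb, is another example. Its probe set 1443772_at read 7.72, 7.66 and 7.08 in wild type, 3.56, 3.80 and 3.78 in Ednrb null and 3.95, 4.49 and 5.46 in Ednrb NCC null. Every mutant array lay below every wild type array, and both were called (limma adjusted p = 4.01e-05 and 0.000687). By its mean over all arrays this probe set is among the dimmest 40%. Its mutant values lie under the limit of 6.14 for that mean, and its wild type values lie above it. The size of a difference that reaches into the dim range is uncertain and is not given. The brightest Dzip1 probe set gave 0.02 and -0.27, and neither was called. The other Dzip1 probe set called, 1428469_a_at, was so in Ednrb NCC null, at -0.49 (adjusted p = 0.0292), and gave -0.14 in Ednrb null (adjusted p = 0.549).

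Spry2, an inhibitor of receptor tyrosine kinase signalling 8 genes from Ednrb, went the other way. Its probe set 1421656_at read 6.82, 6.94 and 6.71 in wild type, 7.52, 7.49 and 7.70 in Ednrb null and 7.42, 7.48 and 7.60 in Ednrb NCC null. Both mutants lay above wild type, by 0.75 (limma adjusted p = 0.00109) and 0.68 (adjusted p = 0.00348). Its brightest probe set gave -0.14 and -0.09. Dnajc3, a chaperone of the endoplasmic reticulum, was 0.62 and 0.80 higher by 1419163_s_at (adjusted p = 0.00238 and 0.000936), and -0.08 and 0.12 by its brightest. With the Actb ratio as a covariate Spry2 and Dnajc3 lost their calls in Ednrb null (adjusted p = 0.0712 and 0.156), at differences of 0.71 and 0.54, and kept them in Ednrb NCC null.

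Gpc6, a glypican of the cell surface, was lower in Ednrb NCC null by 3 of its 5 probe sets, at -0.92, -0.73 and -0.80 (limma adjusted p = 0.000803, 0.0116 and 0.0115). In Ednrb null the same probe sets gave -0.52, called at adjusted p = 0.0139, and -0.17 and -0.04, not called, and the call of the first ended when Ednrb null 37 was left out (-0.43, adjusted p = 0.0524) or the Actb ratio fitted (-0.52, adjusted p = 0.26). Pcdh9, a protocadherin, was lower by 1442659_at in both mutants, at -0.53 and -0.75 (adjusted p = 0.0295 and 0.00688), the former lost without any 1 of 6 arrays (Ednrb null 29, 37 and 41, Ednrb NCC null 5, wild type 1B and 1D), with differences of -0.54 to -0.44, and also when the Actb ratio was fitted (-0.48). Called in 1 mutant each were Tdrd3 by 1441496_at and Mzt1 by 1434664_at, higher in Ednrb null by 0.39 and 0.85 (limma adjusted p = 0.0382 and 0.0175). In Ednrb NCC null these were Klf5 by 1451739_at (0.81) and Dach1 by 1433743_at (-0.99), at limma adjusted p = 0.00373 and 0.0169. Compared directly, the mutants did not differ past the threshold by any of these 4 probe sets (adjusted p = 0.0563 for Tdrd3, 0.232 for Mzt1, 0.0543 for Klf5 and 0.369 for Dach1). In the same mutant the brightest probe sets gave -0.01 for Tdrd3, 0.17 for Mzt1, 0.1 for Klf5 and -0.34 for Dach1, none called. Neither strains nor probe sequences were at hand, and their part in these values was not tested.

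**Figure D3:**
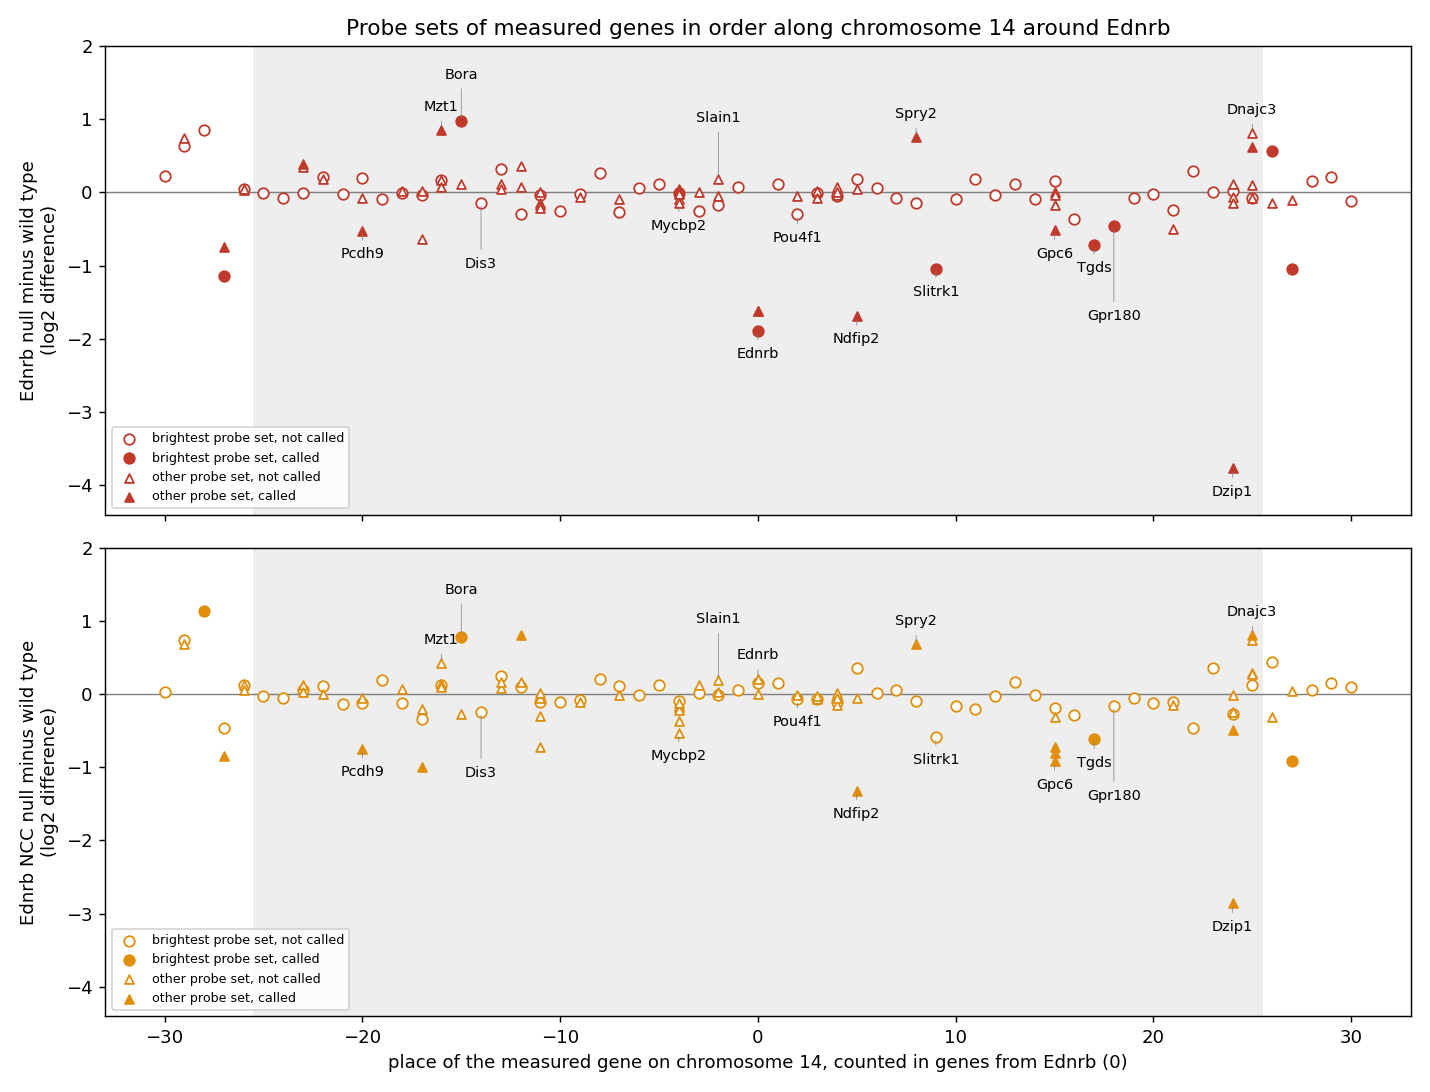
Log2 difference from wild type (y axis) for the measured genes in order along chromosome 14 (x axis, counted in genes from Ednrb at 0), in Ednrb null (upper panel) and Ednrb NCC null (lower panel). Circles are the brightest probe set of a gene and triangles its other probe sets, filled where called, and the grey band spans 25 genes a side. Filled triangles of Ndfip2 (-1.69 and -1.32) and Spry2 (0.75 and 0.68) lie away from 0 in both panels, as does the lowest triangle, of Dzip1. The place of the Dzip1 triangle is uncertain because its mutant values are dim. The circles nearest to Ednrb stay close to 0.

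Wider and narrower windows gave these shares. Without the member probe sets, 2 of 27 were called within 10 genes a side in each mutant. Within 50 genes a side 15 of 179 were called in Ednrb null (8.38%), against 18 of 179 in Ednrb NCC null (10.1%). On the rest of chromosome 14, beyond 25 genes a side, 4.87% and 4.96% of 1109 probe sets were called, close to the 4.83% of the genome in Ednrb null and above its 3.61% in Ednrb NCC null. Over the 20 chromosomes compared, the autosomes and X, chromosome 14 with Ednrb included had 5.68% of its probe sets called in Ednrb null, in a range of 2.31% to 6.78%. In Ednrb NCC null its 5.6% was the highest of the 20, the lowest being 1.87%. With each gene read by its brightest probe set it was eighth of the 20 in both, at 4.84% in a range of 2.43% to 6.44% and 4.38% in a range of 2.58% to 5.9%. Between the mutants, over all probe sets, it had 3.7% in a range of 3.27% to 6.95%. Shares of this kind are a description, since probe sets of a gene are not independent of each other.

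**Figure D4:**
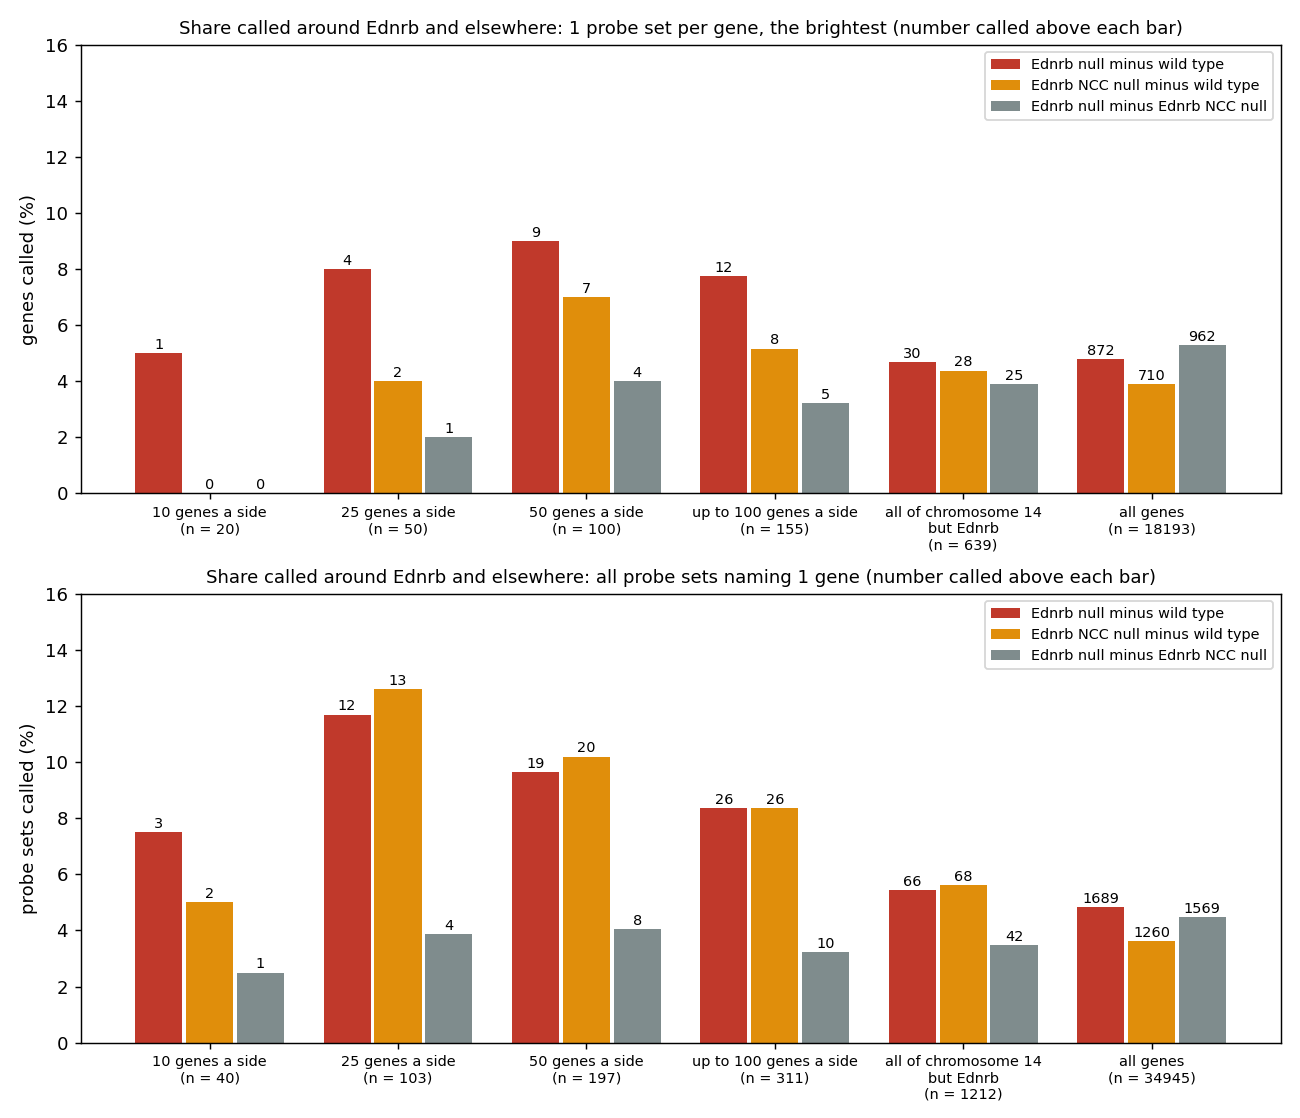
Share called at an adjusted p under 0.05 (y axis, percent) in windows around Ednrb, on chromosome 14 and over the genome (x axis, with the number of genes or probe sets), for the 3 comparisons, with the number called above each bar. The upper panel reads each gene by its brightest probe set and the lower panel takes all probe sets that name 1 gene, where the bars of 25 genes a side reach 11.7% and 12.6% against wild type and 3.88% between mutants. Those bars include the members, which were chosen with their differences known, and without them these 3 shares are 9.41%, 12.9% and 3.53%.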

How the data were processed

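RNA of 9 hindgut samples, 3 per genotype, was hybridised to 1 array each, starting from 150 ng total RNA per the labels' protocols. The authors deposited an intensity for each probe set on a linear scale. It was computed by RMA per the submitters' processing notes, and no version is stated. These intensities were taken to log2 with no pseudocount. RMA is known to understate differences of dim probe sets, and the number of arrays limits the precision. Of 45101 probe sets 64 controls were left out. By the platform annotation 34945 name 1 gene, 932 several and 9160 none. Of 18193 genes, 18032 were found in the RefSeq table of GRCm38.p6, used for names and gene order, and 640 lie on chromosome 14. Promoter windows are RefSeq's, on the same build.

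limma 3.58.1 in R 4.3.3 (lmFit, then eBayes without trend) was fitted over all probe sets and all 9 arrays with a mean per group and two-sided tests. Benjamini-Hochberg adjustment ran over 45037 probe sets, and an adjusted p under 0.05 was called. The dimmest 40% have a mean log2 under 6.14. A gene is read by its brightest probe set among those that name it alone. The fit was tested on simulated data.

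The members, marker lists and windows were chosen with earlier results of these data known. Values per array are given for the brightest probe set of each member, and for other member probe sets that were called or whose groups lay apart with a log2 difference of at least 0.5. The other Bora probe set was added after its values were seen. Named neighbours are the 3 nearest on each side and called genes within 25. The count of neighbour probe sets outside the members, and the genes it names, were chosen after seeing the data. Alternatives were 2 other scalings, no dim probe sets, only the groups compared, trend and robust eBayes, 1 probe set per gene, a threshold of 0.10, other windows, the Actb ratio as a covariate and each array left out.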

Additional observations from a re-analysis of the deposited data

How the results depend on the processing

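No paired analysis was possible because the replicate labels are not shared between groups. Under the alternatives 687 values of single probe sets moved by less than the spread between replicates and 10 by more, and none of the called ones turned direction. Of the counts, 141 stayed within 1.5 times and 87 did not. Causes of the moves below were not tested, and array number and dim signal limit all of them. The first comparison is Ednrb null with wild type, the second sets Ednrb NCC null beside wild type, and the third sets the mutants beside each other.

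With the Actb ratio as a covariate, member probe sets called were 2 in the first and 0 in the third, neighbour genes 2 and 0, neighbour probe sets outside the members 2 and 0, and all probe sets 539 and 283. With 1 probe set per gene, the counts were 0, 0 for neighbour probe sets outside the members in the first and second, since only 1 of the 14 called is the brightest of its gene. In the third they were 0 for members and 2 for neighbour genes, and 917, 902 and 1187 were called over all genes, where fewer were tested. With only the 2 groups compared the second had 1 member probe set, 1 neighbour gene and 1042 probe sets. At a threshold of 0.10 the second had 4 member probe sets, 4 neighbour genes and 2871 probe sets, and the third 2, 3 and 3164, with 8 neighbour probe sets outside the members. Quantile normalization, leaving out the dimmest 40%, and trend and robust eBayes each gave 2 neighbour genes in the third, and 6, 7 and 5 neighbour probe sets outside the members. Leaving out both Ednrb NCC null 2 and wild type 1C, chosen after seeing the data, gave 951 probe sets in the second, and 0 member probe sets and 2 neighbour genes in the third.

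Windows of 10, 50 and up to 100 genes a side gave 1, 9 and 12 neighbour genes in the first, 0, 7 and 8 in the second and 0, 4 and 5 in the third. All probe sets of the neighbours, also chosen after seeing the data, gave 12, 13 and 4. Leaving out each array in turn gave 1 to 4, 1 to 2 and 0 to 1 member probe sets, 1 to 4, 1 to 2 and 0 to 2 neighbour genes, 5 to 8, 7 to 12 and 1 to 4 neighbour probe sets outside the members, and 1330 to 2358, 716 to 1971 and 866 to 2061 over all probe sets.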
